A study of Mus musculus with 4 samples.

Results

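The 34 genes described here are a hand-picked module of the unfolded protein response and the integrated stress response. They were listed by gene symbol, with earlier results of these data known, and were found among the 20140 mouse genes that had a named probe on the arrays. They were measured in 2 mouse tumor cell lines of 24 h culture. LLC, also labelled 3LL, is a lung carcinoma line of C57BL6 origin, and AB1-HA comes from a BALB/c mesothelioma and was given the hemagglutinin of influenza virus as a tumor antigen. The 4 groups were LLC with interferon gamma (IFN-γ), LLC with vehicle, AB1-HA with IFN-γ and AB1-HA with vehicle, with 1 array each. IFN-γ is a cytokine of activated T cells and natural killer cells, and by its title the series sought what suppresses IFN-γ-inducible factors in such cells. The dose of IFN-γ, the vehicle, the clonality of the lines and any pooling of cultures are not given in the sources used here. There were no replicates and no test was run, so every difference below is between single arrays without a replicate check.

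Secreted and membrane proteins fold in the endoplasmic reticulum (ER), where unfolded protein is sensed by IRE1, ATF6 and PERK. IRE1 splices the Xbp1 messenger and ATF6 is cleaved to an active factor, and both then raise chaperones and the machinery of ER-associated degradation, which pulls failed proteins out for destruction. PERK, the amino acid sensor GCN2 and related kinases phosphorylate eIF2α, which lowers translation in general but raises that of ATF4, the factor behind amino acid synthesis genes, CHOP and the phosphatase subunit GADD34. In tumor cells these programs are known for sustaining secretion and growth under nutrient shortage. Arrays read transcript abundance only, so Xbp1 splicing, ATF6 cleavage, eIF2α phosphorylation and ATF4 translation were not measured.

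Some promoters of the module carry motifs through which these factors are known to act, and those with a match are printed to show which genes hold an ER-branch motif and which an ATF4-branch motif. Sequences are from RefSeq (GRCm38.p6), in which 31 of the 34 genes had 35 promoter entries, and the 250 bases before each gene start were searched on both strands. The ER stress response element (ERSE, CCAAT followed after any 9 bases by CCACG) was in 6 of the 35 entries (17.1%), those of Hspa5, Hsp90b1, Dnajc3, Pdia6, Creld2 and Syvn1, and in 37 of all 32851 promoters (0.113%). ERSE-II (ATTGG followed after any 1 base by CCACG) was in the entry of Herpud1 and in 10 promoters in all (0.0304%). The C/EBP-ATF response element (CARE, TGATGNAA) was in those of Asns, Chac1, Herpud1 and Nupr1, 11.4% of the entries, against 3.45% of all promoters. The IFN-γ activated site (GAS, TTCNNNGAA) was in those of Eif2ak3, Nupr1 and Shmt2 (8.57%, against 7.02% of all promoters). The UPR element (UPRE, TGACGTGG) was in 0 of the 35 entries and in 0.563% of all promoters. ERSE, ERSE-II and UPRE share the letters CCACG or their complement and can overlap. The genes were hand-picked for these pathways, so shares above those of all promoters describe the choice of genes and test nothing. A match is a string of letters, not a shown binding site, and the lack of one says only that these letters are not in the window.

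The ERSE and ERSE-II matches are printed with the motif in capitals and 25 bases on each side, in the direction of the gene.
Hspa5, chr2:34772000-34772068, plus strand: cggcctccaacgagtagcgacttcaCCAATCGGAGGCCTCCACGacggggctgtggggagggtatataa
Hsp90b1, chr10:86705508-86705576, minus strand: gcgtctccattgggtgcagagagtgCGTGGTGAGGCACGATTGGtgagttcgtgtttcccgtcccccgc
Hsp90b1, chr10:86705613-86705681, minus strand: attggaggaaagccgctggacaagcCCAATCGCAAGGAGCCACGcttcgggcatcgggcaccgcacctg
Dnajc3, chr14:118937802-118937870, plus strand: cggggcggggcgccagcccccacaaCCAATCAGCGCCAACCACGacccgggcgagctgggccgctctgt
Pdia6, chr12:17266466-17266534, plus strand: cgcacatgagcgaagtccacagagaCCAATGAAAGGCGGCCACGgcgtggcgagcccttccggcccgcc
Creld2, chr15:88819495-88819563, plus strand: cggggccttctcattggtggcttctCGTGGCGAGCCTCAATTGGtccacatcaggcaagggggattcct
Syvn1, chr19:6046507-6046575, plus strand: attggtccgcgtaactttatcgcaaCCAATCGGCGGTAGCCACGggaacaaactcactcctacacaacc
Herpud1 (ERSE-II), chr8:94386352-94386412, plus strand: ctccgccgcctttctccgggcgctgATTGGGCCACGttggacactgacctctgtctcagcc
In Hsp90b1 and Creld2 a match reads on the opposite strand (CGTGG before ATTGG). The Hspa5 motif ended 46 bases before the start and that of Syvn1 25 bases before it.

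The CARE matches, the element read by ATF4 and its partners, are printed in the same way, except that in Asns 15 bases remain between the motif and the gene start.
Asns, chr6:7693210-7693257, minus strand: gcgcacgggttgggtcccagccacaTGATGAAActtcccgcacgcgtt
Chac1, chr2:119351024-119351081, plus strand: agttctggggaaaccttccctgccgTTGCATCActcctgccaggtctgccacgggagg
Herpud1, chr8:94386292-94386349, plus strand: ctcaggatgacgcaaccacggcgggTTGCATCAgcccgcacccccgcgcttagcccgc
Nupr1, chr7:126625548-126625605, minus strand: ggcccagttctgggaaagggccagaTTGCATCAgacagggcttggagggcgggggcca
Chac1, Herpud1 and Nupr1 hold the motif on the opposite strand. In Nupr1 the flank upstream of it also holds the GAS match of this gene.

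The arrays each held 39429 gene probes, of which 57.5% to 58.2% gave signal well above background, and saturated spots numbered 0. All 34 genes were well above background on all 4 arrays, as were 59.5% of the 20140 genes. Values below are log2 signals relative to each array's 75th percentile, or log2 differences between arrays, and a level is compared only with the same probe on another array. The scanner's own error of a difference (1 SD) had a median of 0.20 over the module, and single repeat spots of 232 probes gave a median SD of 0.07 to 0.08. Both leave out differences between cultures, which the number of arrays cannot show. The 6 genes used to check the treatment were higher with IFN-γ in both lines, for example Irf1 at 4.43 in LLC and 4.44 in AB1-HA. Of 9 mesothelial markers with a named probe, 4 were well above background in AB1-HA with IFN-γ and 5 with vehicle, with Msln, Krt18, Krt19 and Pdpn on both, but 5 and 4 were in LLC as well, and Wt1, Upk3b, Lrrn4 and Calb2 were not on any array. The summed intensity of that list was 50666.5 and 62833 in AB1-HA, and 99511 and 144902 in LLC. Of 10 lung epithelial markers 3 were well above background on each array. Scgb1a1 was so on all 4 arrays and Ager on both LLC arrays. Krt7 and Napsa were so on both AB1-HA arrays, and Krt7 also in LLC with IFN-γ and Napsa in LLC with vehicle. Nkx2-1, Sftpc, Sftpb, Sftpa1, Epcam and Cdh1 were not on any. The summed intensity of that list was 89.0 and 73.8 in LLC, and 417.9 and 370.5 in AB1-HA. The pan-leukocyte marker Ptprc was not well above background on any array, and 3 of 7 leukocyte markers were on each array, with summed intensities of 4109 and 4020 in LLC with IFN-γ and vehicle and of 4589 and 4118 in AB1-HA. Of 6 markers of secretory cells with a large ER, 2 were well above background on both LLC arrays and 3 on both AB1-HA arrays. Of 7 fibroblast and mesenchymal markers, 5 and 6 were well above background in LLC with IFN-γ and vehicle, and 6 and 7 in AB1-HA. Vim, Fn1, Col3a1, Pdgfrb and Acta2 were so on all 4 arrays. The summed intensity of that list was 239693 and 289986 in LLC, and 230840 and 246311 in AB1-HA.

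After 24 h of IFN-γ, none of the 34 genes differed from vehicle by 2-fold or more in either line. The genes farthest from 0 were Trib3, Ddit3, Sdf2l1 and Chac1 in LLC, and Cebpb, Ddit3, Ppp1r15a and Trib3 in AB1-HA. In LLC, 0 of the 34 genes passed 2-fold upward and 0 downward, where 3.68% and 1.46% of 13411 genes did. In AB1-HA the counts were again 0 and 0, where the shares were 2.98% and 1.17% of 13208 genes. At 1.5-fold, 4 of the 34 genes were higher and 0 lower in LLC, against 8.19% and 6.18% of all genes, and 4 were higher and 0 lower in AB1-HA, against 5.76% and 4.78% of all genes. They were the genes just named, 4 in each line. These counts rested on the scaling and background correction, as in LLC array median scaling left 1 higher (Trib3) and put 1 lower (Eif2ak3, −0.61), and normexp background correction left 1 higher in LLC (Trib3) and 2 in AB1-HA (Cebpb and Ppp1r15a). The median difference of the module was 0.06 in LLC and 0.07 in AB1-HA, against medians over all genes of −0.06 and −0.08, and the LLC median turned to −0.09 when arrays were scaled to their median, which also moved the median of all genes by −0.14. In size regardless of sign, the median was 0.24 in LLC and 0.10 in AB1-HA, against 0.22 and 0.17 over all genes. These are cultures measured in bulk, so fewer cells with a transcript and less of it per cell cannot be told apart.

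**Figure D1:**
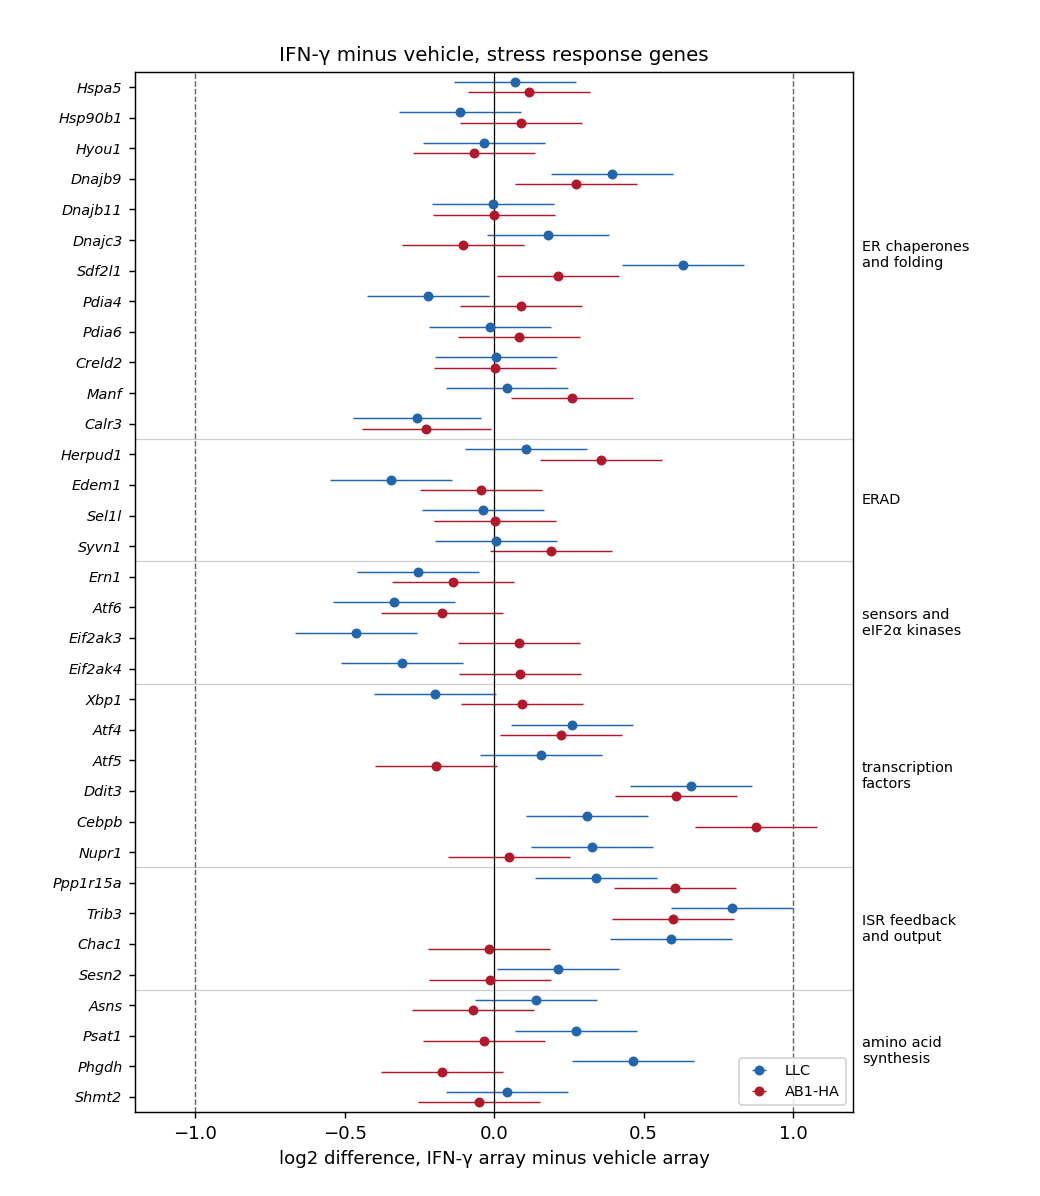
Log2 difference between the IFN-γ and vehicle arrays (horizontal axis) for each of the 34 genes, grouped by role, in LLC (blue) and AB1-HA (red), with bars for the scanner's own error (1 SD, no replicates) and dashed lines at 2-fold. No point reaches either dashed line, and Cebpb in AB1-HA (0.88) and Trib3 in LLC (0.79) lie farthest from 0.

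The 12 ER chaperones and folding factors were centred at 0.00 in LLC and 0.09 in AB1-HA, and the LLC median went below 0, to −0.14, under another scaling of the arrays. Hspa5 encodes BiP, the chief ER chaperone and the usual marker of ER stress. It had 6.41 with IFN-γ and 6.34 with vehicle in LLC, and 6.13 and 6.01 in AB1-HA. Hsp90b1 (GRP94, the ER member of the HSP90 family) differed by −0.11 in LLC and 0.09 in AB1-HA. Among the partners of BiP, Hyou1, a BiP nucleotide exchange factor, was at −0.03 and −0.07 in LLC and AB1-HA, the co-chaperone Dnajb11 at 0.00 in both, and Dnajc3, which also restrains PERK, at 0.18 and −0.10. Dnajb9 (ERdj4, a co-chaperone that restrains IRE1) was at 0.39 in LLC and 0.28 in AB1-HA, and its second probe gave 0.29 and 0.34.

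Sdf2l1, a partner of Dnajb11, had the largest difference of the folding factors in LLC. It had 2.0 with IFN-γ and 1.37 with vehicle in LLC, a 1.55-fold higher signal, and 0.94 and 0.72 in AB1-HA. The IFN-γ array was the higher in both lines, but in AB1-HA by 0.21, near the scanner's own error of 0.20. The protein disulfide isomerases Pdia4 and Pdia6 were at −0.22 and −0.01 in LLC and at 0.09 and 0.08 in AB1-HA. Creld2, a secreted ER stress protein, was measured by 10 spots, of which 9 were kept on each array. It gave 3.86 ± 0.05 with IFN-γ and 3.85 ± 0.04 with vehicle in LLC, and 4.68 ± 0.04 and 4.68 ± 0.04 in AB1-HA (SD over the 9 spots of 1 array, which is spot noise only). Manf, a secreted factor held in the ER at rest, was at 0.04 in LLC and 0.26 in AB1-HA. Calr3, a calreticulin known from testis, was dim, with scanner intensities between 45 and 68, and its difference of −0.26 in LLC turned to 0.36 under another background correction. In AB1-HA it was at −0.23 by the probe used and at 0.19 by its second probe, which gave −0.37 in LLC.

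The 7 genes with an ERSE or ERSE-II match differed by −0.11 to 0.18 in LLC and by −0.10 to 0.36 in AB1-HA, the highest of them being Dnajc3 in LLC and Herpud1 in AB1-HA. Herpud1 organises the degradation complex at the ER membrane and had 2.41 with IFN-γ and 2.30 with vehicle in LLC, and 3.36 and 3.00 in AB1-HA. Edem1, which recognises mannose-trimmed substrates, was at −0.35 in LLC and −0.04 in AB1-HA. Sel1l, the adaptor of the ubiquitin ligase, was at −0.04 and 0.00, and Syvn1 (HRD1), the ligase itself, at 0.01 and 0.19.

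All 4 sensors and eIF2α kinases of the module were lower with IFN-γ in LLC, with differences of −0.25 to −0.46 and a median of −0.32. This direction held for each under the other 3 scalings. Of all 13411 genes with a value in LLC, 7702 were lower with IFN-γ as well. Eif2ak3, which encodes PERK, had −0.08 with IFN-γ and 0.38 with vehicle in LLC, and 0.44 and 0.36 in AB1-HA. Its LLC difference of −0.46 was the lowest of the module, and 9.93% of all genes measured in LLC were at least as low. Ern1 (IRE1α) was at −0.25 in LLC and −0.14 in AB1-HA. Atf6 was at −0.34 and −0.17, and Eif2ak4 (GCN2) at −0.31 and 0.09. In LLC, 24.7% of all genes were at least as low as Ern1, 17.3% as Atf6 and 19.5% as Eif2ak4. In AB1-HA the median of the 4 was −0.03 and turned above 0 under another scaling.

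Among the transcription factors, Ddit3, which encodes the pro-apoptotic factor CHOP, was the one at least 1.5-fold higher in both lines with the scaling used. It had 0.04 with IFN-γ and −0.62 with vehicle in LLC, and 0.85 and 0.24 in AB1-HA. The signal was 1.58-fold higher in LLC and 1.53-fold higher in AB1-HA, and 6.93% and 5.47% of all genes were at least as high. Cebpb, a bZIP factor of inflammation and an ATF4 partner, had 4.62 with IFN-γ and 4.31 with vehicle in LLC, and 4.36 and 3.48 in AB1-HA. It was 1.83-fold higher in AB1-HA, the largest difference of the module there, where 3.54% of all genes were at least as high. Atf4, the central factor of the integrated stress response, was at 0.26 in LLC and 0.22 in AB1-HA, and its second probe gave 0.26 and 0.25. Xbp1 was at −0.20 and 0.09, Atf5, an ATF4 relative that is also under translational control, at 0.16 and −0.19, and Nupr1, a small stress-induced chromatin protein, at 0.33 and 0.05.

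The feedback and output genes of the integrated stress response held the highest value in LLC. Trib3, a pseudokinase that is induced by ATF4 and CHOP and restrains them, had 5.16 with IFN-γ and 4.37 with vehicle in LLC, and 4.52 and 3.93 in AB1-HA. It was 1.73-fold higher in LLC, the largest difference of the module in that line, and 1.51-fold higher in AB1-HA. Ppp1r15a, which encodes GADD34 and directs the phosphatase that resets eIF2α, had 2.10 with IFN-γ and 1.76 with vehicle in LLC, and 2.11 and 1.51 in AB1-HA. For both genes the IFN-γ array was the higher in each line. Chac1, a glutathione-degrading enzyme downstream of ATF4, had 2.70 with IFN-γ and 2.10 with vehicle in LLC, and 2.92 and 2.94 in AB1-HA, so that its IFN-γ array was the higher in LLC alone by more than the scanner's error. Sesn2, a leucine sensor that restrains mTORC1, was at 0.22 in LLC and −0.01 in AB1-HA.

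The 4 amino acid and one-carbon enzymes had medians of 0.21 in LLC and −0.06 in AB1-HA, but the AB1-HA median reached 0.03 under another scaling, and under array median scaling Asns and Shmt2 in LLC came to −0.01 and −0.10. Phgdh, the first enzyme of serine synthesis, had 5.29 with IFN-γ and 4.83 with vehicle in LLC, and 5.34 and 5.51 in AB1-HA. Its second probe gave the same directions, 0.49 in LLC and −0.12 in AB1-HA. Psat1, the next enzyme, was at 0.27 and −0.03 by the probe used and at 0.10 and 0.08 by its second probe. Psph, the last step of serine synthesis and not one of the 34, was at 0.79 in LLC and −0.11 in AB1-HA, and its second probe gave 0.81 and −0.06. Asns, asparagine synthetase, was at 0.14 and −0.07, and Shmt2, the mitochondrial serine hydroxymethyltransferase, at 0.04 and −0.05.

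**Figure D2:**
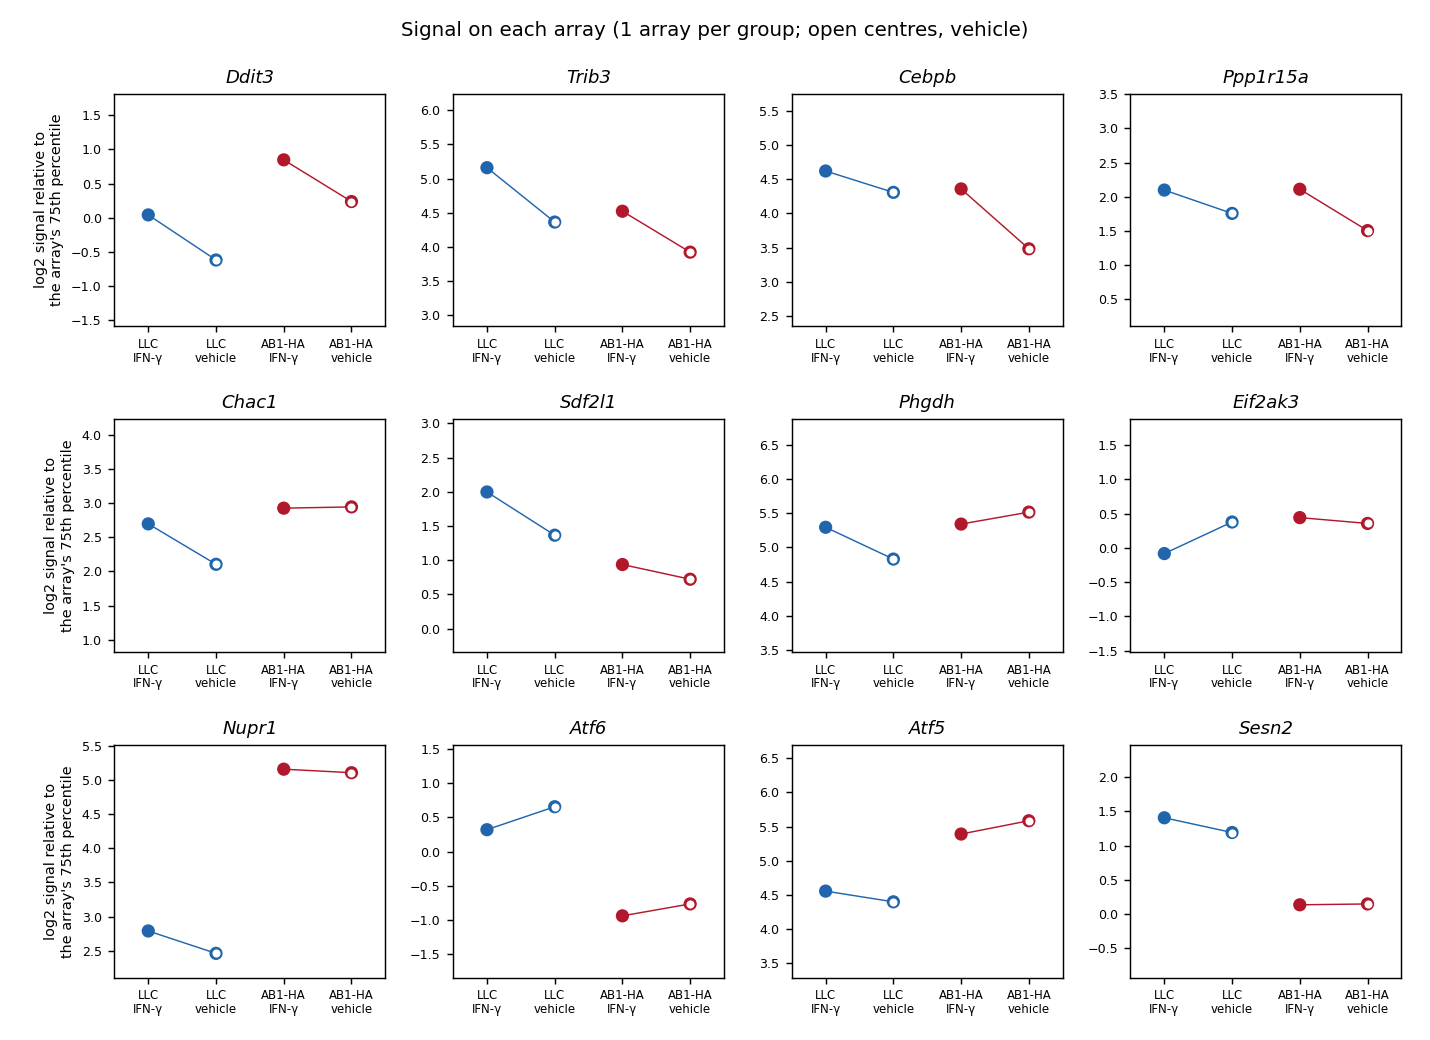
Log2 signal relative to the array's 75th percentile (vertical axis, of the same span in every panel) on the 4 arrays for 12 of the genes, with LLC in blue, AB1-HA in red and open centres for vehicle. Ddit3, Trib3, Cebpb and Ppp1r15a are higher with IFN-γ in both lines, Chac1 and Phgdh in LLC, and Nupr1, Atf6, Atf5 and Sesn2 are split by cell line.

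Set side by side, the effects of IFN-γ in LLC and AB1-HA had the same sign in 19 of the 34 genes (55.9%), against 56.0% of the 11985 genes measured on all arrays. Across the 34 genes Pearson's r was 0.48 and Spearman's rho 0.36, against 0.63 and 0.14 across all genes. Genes are not independent replicates, and all 4 arrays share a slide. Ddit3 and Trib3 were at least 1.5-fold higher in both lines, 5.88% of the 34 genes, against 2.29% of all genes. With array median scaling this held for Trib3 alone, as Ddit3 came to 0.51 in LLC, and with normexp background correction for neither. The effect in LLC minus that in AB1-HA reached 2-fold in 0 of the 34 genes in either direction, where 2.54% of all genes reached it upward and 1.69% downward. At 1.5-fold it did so in 2 upward (Phgdh and Chac1) and 0 downward, against 9.14% and 6.06% of all genes. That count had no settled direction, since it was 0 upward under each of the other 3 scalings and 2 downward (Cebpb and Eif2ak3) under array median and loess scaling. The largest values were those of Phgdh (0.64), Chac1 (0.61), Cebpb (−0.56) and Eif2ak3 (−0.55), for which the scanner's own error was 0.29. None of these differences between the lines could be tested.

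Other genes of the same pathways were taken from lists of 91 further genes with a value in each line. Of these, 3 were at least 2-fold higher with IFN-γ in LLC and 3 in AB1-HA, and 0 were at least 2-fold lower in either. That is 3.30% of them higher in each line, near the 3.68% in LLC and 2.98% in AB1-HA over all genes. Atf3 and Eif2ak2 were shared by both lines. Atf3, a repressor induced by ATF4, had 0.36 with IFN-γ and −1.51 with vehicle in LLC, and −0.72 and −2.27 in AB1-HA, 3.65-fold and 2.93-fold higher. Eif2ak2 encodes PKR, the eIF2α kinase that senses double-stranded RNA and is an interferon-stimulated gene. It had 0.01 with IFN-γ and −1.26 with vehicle in LLC, and 1.58 and 0.18 in AB1-HA. Its signal was 2.41-fold higher in LLC and 2.65-fold higher in AB1-HA, whereas PERK and GCN2 stayed within 1.5-fold in both lines with the scaling used. Under array median scaling PERK was at least 1.5-fold lower in LLC (−0.61).

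The third gene differed between the lines. In AB1-HA it was Wars, the tryptophanyl-tRNA synthetase and an interferon-stimulated gene, with 6.94 with IFN-γ and 4.21 with vehicle, against 5.04 and 4.18 in LLC. None of the other tRNA synthetase and export genes listed as ATF4 targets that had a value was 2-fold different in either line, and the list of 13 had a median of 0.05 in LLC and −0.01 in AB1-HA, with no settled sign across scalings. In LLC the third gene was Fkbp11, an ER prolyl isomerase, with −1.69 with IFN-γ and −2.98 with vehicle, against −1.06 and −0.48 in AB1-HA. The 20 further ER folding genes had medians of −0.10 in LLC and 0.06 in AB1-HA, the 17 further degradation genes with a value −0.04 and −0.09 (the second up to 0.00 under another scaling), and the further stress regulators −0.05 and −0.10. With the scaling used, 1 of the 20 folding genes was at least 1.5-fold higher in LLC (Fkbp11) and 2 lower (Txndc5, −0.90, and Fkbp14, −0.64). In AB1-HA 2 were higher (Uggt1, 0.75, and Ero1a, 0.67) and 0 lower. The shares of all genes were 8.19% and 6.18% in LLC, and 5.76% and 4.78% in AB1-HA. Uggt1 was at 0.47 in LLC, and its second probe gave 0.72 in LLC and 0.78 in AB1-HA. The 21 further transporters and enzymes under ATF4 had medians of 0.13 in LLC and −0.09 in AB1-HA, the first of which reached −0.01 under another scaling, and in LLC 3 of them were at least 1.5-fold higher and 1 lower, where 8.19% and 6.18% of all genes did so, against 0 and 0 in AB1-HA. The 3 were Psph, Stc2 (0.73), a secreted stanniocalcin, and Gdf15 (0.71), a stress-induced hormone, and array median scaling left Psph alone. The 1 was Fgf21, a starvation hormone, at −0.72 from a dim signal.

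**Figure D3:**
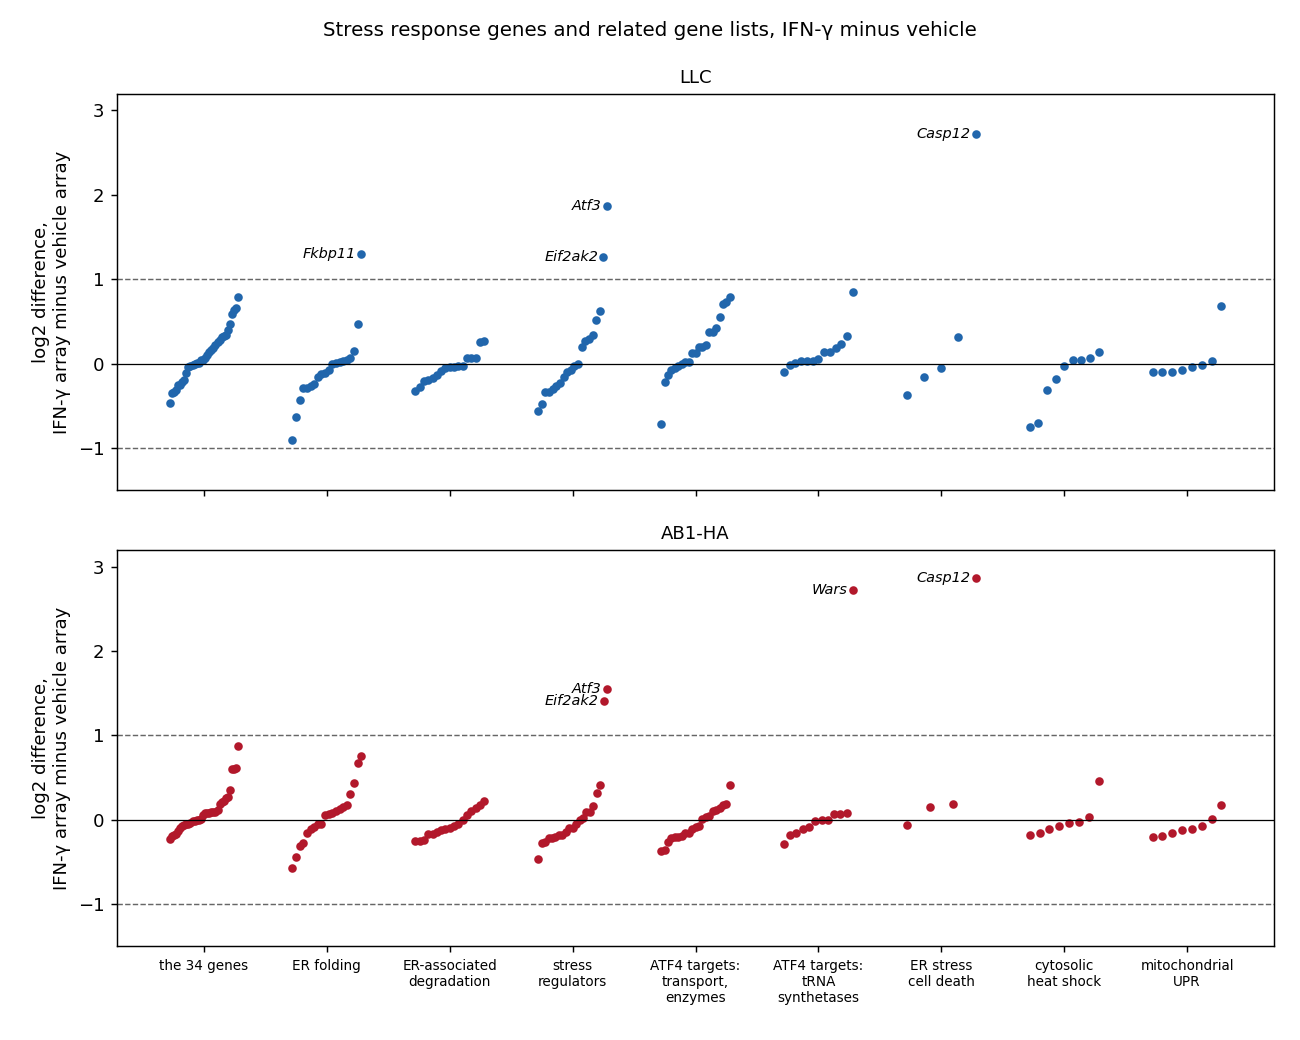
Log2 difference between the IFN-γ and vehicle arrays (vertical axis) for the 34 genes and for 8 lists of related genes (horizontal axis, each point a gene, sorted within its list), in LLC above and AB1-HA below, with dashed lines at 2-fold. Atf3, Eif2ak2 and the dim Casp12 lie above the upper line in both lines, Fkbp11 in LLC and Wars in AB1-HA.

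Between the cell lines, Nupr1, Sesn2, Atf6 and Sdf2l1 stood farthest apart with IFN-γ, and Nupr1, Atf6, Atf5 and Sesn2 with vehicle. On vehicle, 2 of the 34 genes had at least a 2-fold higher signal in LLC than in AB1-HA and 2 a signal lower by as much, where the shares over 13836 genes were 16.4% and 16.0%. On IFN-γ, 3 were higher and 1 lower, where the shares over 13893 genes were 15.4% and 13.3%. At 1.5-fold, 5 were higher and 7 lower on IFN-γ, against 24.7% and 22.4% of all genes, and 6 were higher and 8 lower on vehicle, against 26.0% and 27.8%. In size regardless of sign, the median difference of the module was 0.39 with IFN-γ and 0.43 with vehicle, against 0.54 and 0.64 over all genes. The lines differ together in tissue, in mouse strain and in the hemagglutinin given to AB1-HA, which cannot be told apart here.

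Nupr1 had the largest difference of the module. It had 2.79 with IFN-γ and 2.46 with vehicle in LLC, against 5.15 and 5.10 in AB1-HA. The LLC signal was 5.15-fold lower with IFN-γ and 6.24-fold lower with vehicle, and 4.54% and 4.07% of all genes were at least as low. Atf5 had 4.56 and 4.40 in LLC, against 5.39 and 5.59 in AB1-HA. It was 1.78-fold lower in LLC on IFN-γ and 2.27-fold lower on vehicle, and quantile normalization brought the vehicle difference of −1.19 to −0.91. Ddit3 was lower in LLC as well, at −0.80 with IFN-γ and −0.85 with vehicle. Chac1 differed by −0.23 with IFN-γ and −0.84 with vehicle, and Cebpb by 0.26 and 0.83.

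Atf6 was the sensor more than 2-fold apart between the lines. It had 0.32 with IFN-γ and 0.66 with vehicle in LLC, against −0.94 and −0.76 in AB1-HA, 2.39-fold and 2.68-fold higher in LLC. Ern1 differed by 0.03 with IFN-γ and 0.15 with vehicle, Eif2ak3 by −0.53 and 0.02, and Eif2ak4 by 0.39 and 0.78. Sesn2 had 1.41 with IFN-γ and 1.19 with vehicle in LLC, against 0.14 and 0.15 in AB1-HA, 2.41-fold and 2.06-fold higher in LLC. Trib3 differed by 0.64 with IFN-γ and 0.44 with vehicle and Ppp1r15a by −0.01 and 0.25. Xbp1 was at −0.23 and 0.07, and Atf4 at 0.07 and 0.03.

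The folding and degradation genes also pointed both ways between the lines. Sdf2l1 was higher in LLC, at 1.06 with IFN-γ (0.93 with array median scaling) and 0.64 with vehicle. Dnajb9 was lower, at −0.83 and −0.95, and its second probe gave −1.37 and −1.32. Creld2 (−0.83 and −0.83), Manf (−0.79 and −0.57) and Herpud1 (−0.95 and −0.70) were lower in LLC. Hspa5 was at 0.28 and 0.33 and Dnajc3 at 0.68 and 0.39. Hsp90b1 was at −0.44 and −0.24, the second of which turned to 0.05 under quantile normalization, and Hyou1 was at −0.43 and −0.46. Pdia6 had no settled direction, since the probe used gave 0.49 with IFN-γ and 0.59 with vehicle and its second probe gave −1.08 and −0.85. By the probes used, Dnajb11, Pdia4, Calr3, Edem1, Sel1l and Syvn1 lay between −0.16 and 0.42 in both comparisons. The second probe of Calr3 gave −0.43 with IFN-γ and 0.13 with vehicle. By the probes used, the amino acid enzymes lay between −0.19 and 0.39, except Phgdh on vehicle, which was at −0.69. The second probe of Phgdh gave −0.48 on vehicle. Psat1 was at 0.12 with IFN-γ and −0.19 with vehicle, but its second probe gave −0.34 and −0.36.

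**Figure D4:**
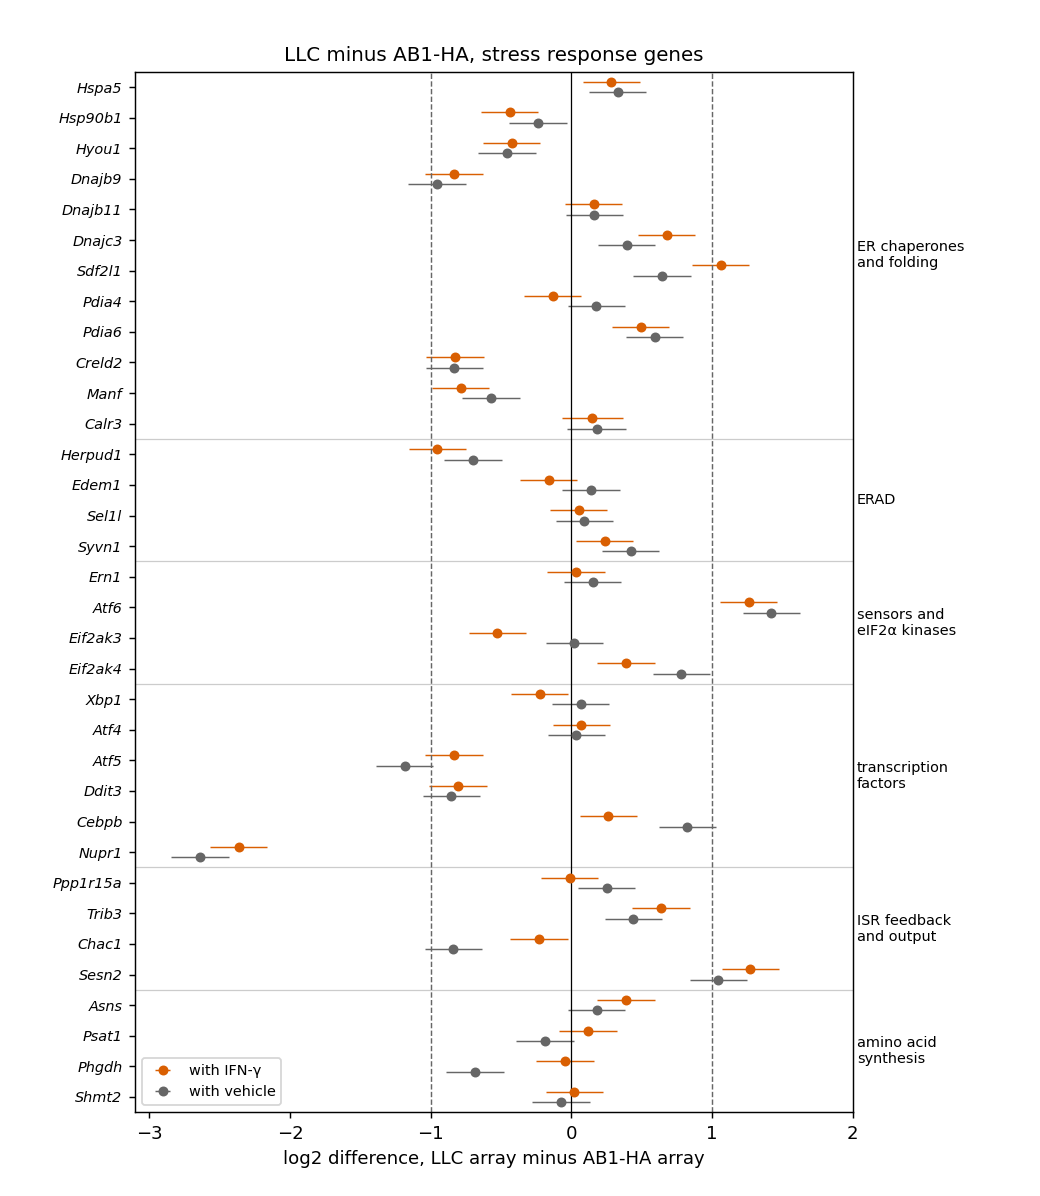
Log2 difference between the LLC and AB1-HA arrays (horizontal axis) for each of the 34 genes, grouped by role, with IFN-γ (orange) and with vehicle (grey), with bars for the scanner's own error (1 SD, no replicates) and dashed lines at 2-fold. Nupr1 lies beyond the lower line in both, Atf6 and Sesn2 beyond the upper line in both, Sdf2l1 with IFN-γ and Atf5 with vehicle.

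Genes of the same pathways outside the module also differed between the lines. Of the further 91 genes with a value on vehicle, 4 were at least 2-fold higher in LLC and 17 at least 2-fold lower, and on IFN-γ the counts were 4 and 17 of 90. In either direction that is 23.3% with IFN-γ and 23.1% with vehicle, below the 28.6% and 32.5% of all genes. The arginine transporter Slc7a3 had 0.67 with IFN-γ and 0.25 with vehicle in LLC, against −4.98 and −4.77 in AB1-HA, a difference of 5.66 and 5.02 that became 3.56 and 3.05 under another background correction. Stc2 differed by −4.53 with IFN-γ and −5.25 with vehicle, and Gdf15 by −2.70 and −3.56. Fgf21 was 8.01-fold lower in LLC with IFN-γ and 5.87-fold lower with vehicle, from a dim signal. Eif2ak2 was lower in LLC in both states, at −1.57 and −1.44. Of the ER-resident genes, Calr was at −1.07 and −1.05, Fkbp2 at −1.42 and −1.25, Erp29 at −1.10 and −1.13, and the membrane protein Wfs1 at −2.01 and −1.52. Erlec1, an ER lectin, was higher in LLC at 1.35 and 1.43, as was the transmembrane bZIP factor Creb3l1 at 2.13 and 2.50.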

How the data were processed

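Cy3-labelled RNA was hybridised to 1 Agilent array per group, and all 4 arrays share a slide. The deposited intensity values are scanner output, which Agilent Feature Extraction 10.7.1.1 had background-subtracted but not normalized between arrays, per the file headers. The deposited series table of log2 values has no stated processing. Its columns correlated at 0.9988 to 0.9995 with the log2 signals used here after centring per probe on the 4 arrays, so scale and direction were those of the signal, and their medians were 0.08 (LLC with IFN-γ), −0.13 (LLC with vehicle), −0.08 (AB1-HA with IFN-γ) and 0.11 (AB1-HA with vehicle).

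Control spots and outlier spots (166 to 201 per array) were left out, log2 signals were averaged per probe, and the 75th percentile of an array's gene probes (1380 to 1598 intensity units) was subtracted from them. A probe was well above background where at least 0.5 of its kept spots had the scanner's mark. Accessions were matched without version to RefSeq genes (GRCm38.p6, names only), naming 26581 of 39429 probes. The brightest probe of a gene was used, and 27 of the 34 genes had 1. Probe sequences were not used here, so binding to near-identical transcripts was not examined. A gene dim on 1 array of a comparison got a bound, set by that array's lowest signal well above background (7.01 to 8.26) or by its own signal there if higher, and a gene dim on both got no value. Calls were set at 2-fold.

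The 34 genes and the lists were chosen with earlier results of these data known. Of 123 further genes in 9 lists, 121 had a named probe. By rule, all 34 genes were described, and of the other lists the genes past 2-fold and up to 3 highest and 3 lowest per comparison. The lists cover ER folding, ER-associated degradation, stress regulators, ATF4 targets (transporters and enzymes, and tRNA synthetases), ER stress cell death, cytosolic heat shock, the mitochondrial unfolded protein response and IFN-γ target genes. Stc2, Gdf15 and Psph fell under that rule. With 1 array per group, no test was run. The code for the calls was checked on simulated data, which says nothing of differences between cultures. Scripts ran in Python 3.11.15 (pandas 2.3.3, numpy 2.4.6, figures in matplotlib 3.10.9), and normexp, quantile and loess steps in limma 3.58.1 under R 4.3.3.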

Additional observations from a re-analysis of the deposited data

Results flagged for a closer look

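For 3 genes of the related lists the IFN-γ array was, by the probe used, higher than vehicle in one line and lower in the other, with at least 2-fold between the effects. With 1 array per group this difference between the lines was not tested. The ER prolyl isomerase Fkbp11 differed by 1.30 in LLC and −0.57 in AB1-HA, a difference of 1.87 that ranged from 1.53 to 1.87 over the alternatives. Fkbp14, another ER prolyl isomerase, differed by −0.64 in LLC and 0.43 in AB1-HA, a difference of −1.07 that ranged from −1.40 to −0.83. Hspa1a, an inducible cytosolic HSP70, differed by −0.70 in LLC and 0.46 in AB1-HA, a difference of −1.16. Its intensities were 15.3 and 28.2 with IFN-γ and vehicle in LLC and 27.2 and 19.3 in AB1-HA, near the floor of the arrays, and the difference was −0.33 with another background correction.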

How the results depend on the processing

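Each group holds 1 array, so no array could be left out. No paired or additive fit over the lines was run, since the lines were compared with each other and not taken as replicates. No called value of the 34 genes changed sign under the alternatives tried. At 1.5-fold in place of 2-fold, the counts of the 34 genes were 4 higher in LLC with IFN-γ, 4 higher in AB1-HA with IFN-γ, 6 higher and 8 lower between the vehicle arrays of the lines, 5 higher and 7 lower between their IFN-γ arrays, and 2 higher for the effect in LLC minus that in AB1-HA. These counts were also taken under each other alternative, chosen after seeing the data. Of the genes higher by 1.5-fold in LLC, array median scaling and normexp left 1 each, and array median scaling put 1 lower, and in AB1-HA normexp left 2. In both lines at once, array median scaling left 1 and normexp 0. Between the IFN-γ arrays array median scaling left 3 higher. For the difference of effects, 0 were higher under each other scaling, while 2 were lower by array median, 1 by quantile and 2 by loess scaling, and normexp gave 1 higher and 1 lower. At 2-fold between the vehicle arrays, quantile normalization gave 3 higher (with Cebpb, 1.02) and 1 lower, as Atf5 came to −0.91, and the mean over a gene's probes gave 3 lower (with Dnajb9, −1.14). Between the IFN-γ arrays, array median scaling gave 2 lower (with Herpud1, −1.08), as did the mean over probes (with Dnajb9, −1.10), and array median scaling and normexp each left 2 higher, as Sdf2l1 came to 0.93 and 0.98. Under the 3 other scalings, 27 of the 34 genes kept their sign in LLC, 25 in AB1-HA, 26 between the IFN-γ arrays, 31 between the vehicle arrays and 28 for the difference of effects. Array median scaling moved the median of all genes by −0.14 in LLC, −0.13 between the IFN-γ arrays and −0.14 for the difference of effects, and loess moved it by 0.15 between the vehicle arrays and −0.12 for the difference of effects. The median of the 34 genes in LLC was −0.09 under array median scaling. Of all genes called in LLC, 71.6% were higher, against 55.5%, 60.5% and 55.6% under median, quantile and loess scaling, and for the difference of effects 60.0%, against 39.9%, 47.9% and 36.2%. Normexp background correction left 254 genes higher and 21 lower in LLC, where 494 and 196 were, and 260 and 20 in AB1-HA, where 394 and 154 were. It also lowered dim genes, and Casp12 came to 0.56 in LLC and 1.42 in AB1-HA. Calr3 changed direction with the background correction and with the probe. Pdia6 did so between the lines with the probe, to −0.29 and −0.13 as a mean over probes. The scanner's error and repeat spots bound spot noise only, so signals near background and differences near 0.20 have no settled direction.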

Other observations

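The 3 stress lists next to the module had medians between −0.11 and 0.17 with IFN-γ against vehicle. Of 5 ER stress cell death genes, Casp12, a caspase tied to the ER in mice, was at 2.72 in LLC and 2.87 in AB1-HA with IFN-γ against vehicle, and it was the 1 gene of the list at least 2-fold different in either line. Its signals were dim, with intensities of 99.1 and 17.2 in LLC and 155.6 and 20.7 in AB1-HA, and its LLC difference came to 0.56 with another background correction. Pmaip1, which encodes the BH3-only protein NOXA, had −0.82 with IFN-γ and −0.77 with vehicle in LLC and was not well above background in AB1-HA, so that it was at least 106-fold higher in LLC with IFN-γ and at least 97.7-fold higher with vehicle. The cytosolic small heat shock protein Hspb1 was likewise not well above background in AB1-HA and was at least 23.1-fold and at least 34.3-fold higher in LLC.

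The cytosolic heat shock genes had medians of −0.03 in LLC and −0.06 in AB1-HA with IFN-γ (the second up to 0.03 under another scaling), and none of those with a value, 9 in LLC and 8 in AB1-HA, was at least 2-fold different. With the scaling used, 0 were at least 1.5-fold higher and 2 lower in LLC, where the shares of all genes were 8.19% and 6.18%. In AB1-HA the counts were 0 and 0, where the shares were 5.76% and 4.78%. The mitochondrial unfolded protein response genes had medians of −0.06 and −0.11. Among its 8 genes the mitochondrial co-chaperonin Hspe1 was at 0.68 in LLC and −0.16 in AB1-HA, the others in LLC lying between −0.10 and 0.04. The further probes of Hspe1 gave 0.76 and 1.07 in LLC, and −0.22 and −0.25 in AB1-HA. Hspe1 was lower in LLC than in AB1-HA, by −0.73 with IFN-γ and −1.57 with vehicle.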
